A study of Homo sapiens with 8 samples.

Results

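The miR-200 family consists of microRNAs made from 5 hairpins in 2 genomic clusters, and it was followed here in HEK293, an established line of human embryonic kidney cells. Its entries were chosen by name (either arm of miR-200a, miR-200b, miR-200c and miR-141, and miR-429), which gave 5 of the 2867 entries in the deposited table and 5 of its 903 known microRNAs. The rule itself used no measured value, although earlier results of these data were known when the members were chosen. All 5 entries are products of the 3′ side of their hairpins. The choice by name took either arm but found no 5′ partner in the deposited table, so those could not be followed. Small RNA had been sequenced to ask whether an antisense oligonucleotide (ASO, a synthetic strand designed to pair with one RNA) had effects beyond its target, miR-31 by the names of the libraries. There were 4 libraries of HEK293 cells transfected with 100 nM ASO and 4 libraries of HEK293 cells given no ASO (controls), all harvested at 48 h. An unrelated ASO was given to neither group, and the labels do not say whether the controls were mock-transfected, so an effect of this ASO and an effect of transfecting any ASO cannot be told apart.

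A microRNA guides the Argonaute protein to messenger RNAs that pair with its seed, the stretch of bases near its 5′ end, and lowers their output. The miR-200 family is known for holding epithelial cells in their epithelial state: its members repress ZEB1 and ZEB2, transcription factors that silence the adhesion gene CDH1, and those factors in turn repress both miR-200 clusters. Loss of the family is a mark of epithelial-mesenchymal transition.

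The mature sequences are printed first because they set how the members divide. They are given 5′ to 3′ from RefSeq (GRCh38.p14, plus strand, all 5 entries found by name), with the seed, bases 2 to 8, in capitals. miR-200b-3p and miR-200a-3p are 22 bases long in RefSeq, but their deposited length is 23 bases. For those entries the printed sequence need not be the one that was counted.
miR-200b-3p, chr1:1167160-1167181: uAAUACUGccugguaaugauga
miR-429, chr1:1169055-1169076: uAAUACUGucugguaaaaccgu
miR-200c-3p, chr12:6963742-6963764: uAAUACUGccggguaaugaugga
miR-200a-3p, chr1:1167916-1167937: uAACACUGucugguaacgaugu
miR-141-3p, chr12:6964155-6964176: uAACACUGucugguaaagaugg
miR-200b-3p, miR-429 and miR-200c-3p share the seed AAUACUG, while miR-200a-3p and miR-141-3p share AACACUG, so each cluster holds both seeds. Counted from 1 at the 5′ end of miR-200b-3p, the seeds differ from one another by U4C. Across clusters, miR-200c-3p differs from miR-200b-3p at 2 of 22 compared positions (U11G and A22G), and miR-141-3p differs from miR-200a-3p also at 2 of 22 (C17A and U22G). Within the chromosome 1 cluster, miR-429 differs from miR-200b-3p at 6 of 22. The most similar sequences therefore lie on different chromosomes.

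In GENCODE 29 (GRCh38) the chromosome 1 hairpins MIR200B (1167104 to 1167198), MIR200A (1167863 to 1167952) and MIR429 (1169005 to 1169087) lie on the plus strand within 1984 bases and overlap no other annotated gene. MIR200C and MIR141 lie on the plus strand of chromosome 12 within 493 bases, with 330 bases between them, both in intronic sequence of the long noncoding RNA gene MIR200CHG (6963246 to 6964447). The 2 hairpins of that locus are printed with the mature 3p strand in capitals, because their counts stood far apart.
MIR200C, chr12:6963699-6963766: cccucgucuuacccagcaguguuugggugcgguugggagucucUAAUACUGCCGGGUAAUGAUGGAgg
MIR141, chr12:6964097-6964191: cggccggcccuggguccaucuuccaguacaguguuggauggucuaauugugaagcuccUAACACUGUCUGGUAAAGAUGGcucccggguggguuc

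The libraries held 8168828 to 11677123 counts, of which known microRNAs took 99.1%. Levels below are TMM-normalized CPM, with the SD over n = 4 libraries per group. Each count was scaled to the library's total times a TMM factor, which ran from 0.966 to 1.03. miR-31-5p, the target, did not separate the groups (633 to 1012 CPM with ASO, 348 to 1050 CPM in controls; log2 fold change 0.19, SE 0.33, edgeR quasi-likelihood test with Benjamini-Hochberg adjustment, adjusted p = 0.851), so it gave no check of the group labels. The entry of miR-122-5p, a liver marker, was at 24.8 to 40.4 CPM with ASO, against 10.1 to 14.8 CPM in the controls, with an edgeR adjusted p of 0.0516 and a call in DESeq2, and its part in the values below was not tested. The blood markers listed, miR-486-5p and miR-142-3p, summed to 72.9 to 88.7 CPM with ASO, against 80.6 to 85.1 CPM in the controls, and miR-142-3p did not exceed 0.394 CPM. The 4 muscle entries summed to 5.31 to 9.56 CPM with ASO and 5.10 to 7.10 CPM in controls. The 1 tested blood entry, miR-486-5p, and the 1 tested muscle entry, miR-1-3p, did not pass. Control library 1 had the highest miR-200b-3p level of the controls and the lowest levels of miR-200a-3p, miR-429 and miR-200c-3p. The check for a library far from its group, given at the end, did not flag it, but flagged ASO library 1 for miR-200c-3p. Values without control library 1, and values without ASO library 1, are given below. MicroRNAs do not define the HEK293 line, so its identity rests on the label.

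The family was a minor part of the counts, which cover known and predicted microRNAs and no other small RNA. It took 0.0559% ± 0.00402 of all counts with ASO and 0.0553% ± 0.00178 in controls (SD, n = 4 each), and its summed level was 555 ± 25.7 CPM with ASO, against 555 ± 9.52 CPM in the controls. Single libraries ranged from 522 to 576 CPM with ASO and from 545 to 565 CPM in controls, so the control range lay within the ASO range. Among the 903 known microRNAs ranked by mean level, miR-200b-3p stood at 114, miR-200c-3p at 170, miR-429 at 218 with miR-200a-3p between them, and miR-141-3p at 710. Library preparation takes up some small RNA sequences better than others, so the order of different microRNAs is less certain than a difference of the same one between libraries. The entries are 22 or 23 bases long in the deposited table, so length hardly enters the order.

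Over all 8 libraries the order of mean levels was miR-200b-3p (356 CPM), miR-200c-3p (97.6 CPM), miR-200a-3p (58.1 CPM), miR-429 (43.4 CPM) and miR-141-3p (0.235 CPM). The lowest miR-200b-3p level, 324 CPM, was above the highest miR-200c-3p level, 112 CPM, and the lowest miR-200c-3p level, 70.7 CPM, was above the highest miR-200a-3p level, 65.2 CPM. miR-200a-3p (46.1 to 65.2 CPM) and miR-429 (35.9 to 48.6 CPM) overlapped across libraries, although within each library miR-200a-3p was the higher, by 1.10-fold to 1.44-fold.

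miR-200b-3p, the leading member of the chromosome 1 cluster, was at 327, 353, 324 and 364 CPM with ASO (libraries 1 to 4), and at 409, 367, 365 and 338 CPM in the controls (libraries 1 to 4). All 4 ASO libraries lay below the control median, but the groups overlapped because control library 4 was low. The mean was 342 ± 19.7 CPM with ASO, against 370 ± 29.1 CPM in the controls, a fold of 0.925 (95% interval 0.819 to 1.05; log2 fold change −0.11, SE 0.08, edgeR adjusted p = 0.555). With the lowest count at 3045, counting error was about 1.65% at the mean count, against a spread of 5.75% between ASO libraries and 7.88% between controls.

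miR-200a-3p, the chromosome 1 member with the other seed, was at 60.7, 63.9, 65.2 and 52.1 CPM with ASO (libraries 1 to 4), and at 46.1, 55.4, 59.8 and 61.4 CPM in the controls (libraries 1 to 4). The groups overlapped widely, with the lowest value in control library 1 and the next lowest in ASO library 4. The mean was 60.5 ± 5.89 CPM with ASO, against 55.7 ± 6.84 CPM in the controls (log2 fold change 0.12, SE 0.12, edgeR adjusted p = 0.717), and the 95% interval of the fold ran from 0.898 to 1.31.

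miR-429, the last hairpin of the chromosome 1 cluster, was at 45.4, 45.7, 48.6 and 47.3 CPM with ASO (libraries 1 to 4), and at 35.9, 40.1, 41.6 and 42.6 CPM in the controls (libraries 1 to 4). All 4 ASO libraries were above all 4 controls, and it was the 1 member of the 4 tested whose groups did not overlap. Over all 745 tested entries 8.32% had groups that did not overlap, 3.09% with ASO the higher. The mean was 46.8 ± 1.49 CPM with ASO, against 40.0 ± 2.96 CPM in the controls, a fold of 1.17 (95% interval 1.03 to 1.33). In edgeR's test the log2 fold change was 0.22 (SE 0.08, unadjusted p = 0.0237, adjusted p = 0.421), which missed the threshold of 0.05, and DESeq2 gave an adjusted p of 0.0687. Of the 745 tested entries, 417 changed by as much or more in either direction and the p of 41 was smaller.

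miR-200c-3p, the leading member of the chromosome 12 cluster, was at 88.7, 112, 109 and 112 CPM with ASO (libraries 1 to 4), and at 70.7, 86.2, 98.6 and 103 CPM in the controls (libraries 1 to 4). ASO libraries 2, 3 and 4 were above every control, and ASO library 1 lay among the controls. The mean was 106 ± 11.3 CPM with ASO, against 89.6 ± 14.5 CPM in the controls, a fold of 1.18 (95% interval 0.941 to 1.47; log2 fold change 0.24, SE 0.14, edgeR adjusted p = 0.505). It was the most variable of the 4 tested members, with a spread of 15.1% over the 8 libraries, against 7.68% for miR-200b-3p, 9.67% for miR-429 and 11.1% for miR-200a-3p.

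miR-141-3p, the other product of the chromosome 12 locus, had 21 counts (1.88 CPM) in ASO library 3 and 0 counts in the other 7 libraries. A count of 0 allows up to 3 counts, which is 0.257 to 0.367 CPM in these libraries before TMM scaling. Neighbouring miR-200c-3p had 717 to 1335 counts per library. In ASO library 3 miR-141-3p was 1.69% of the locus's 1242 counts (Wilson 95% interval 1.11 to 2.57), and over all 8 libraries it was 21 of 8138 counts (0.258%, 0.169 to 0.394). Intervals and limits of this kind hold only the error of counting, because PCR makes copies that are not separate molecules. A listed 0 in the deposited table need not mean that the microRNA was absent: 31 known entries were at 0 in some library and at 100 counts or more in another. Of the 110 known entries above 0 in a single library, 18 had at least 21 counts there. miR-141-3p was not above 0 in enough libraries to be tested, and no fold is given.

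**Figure D1:**
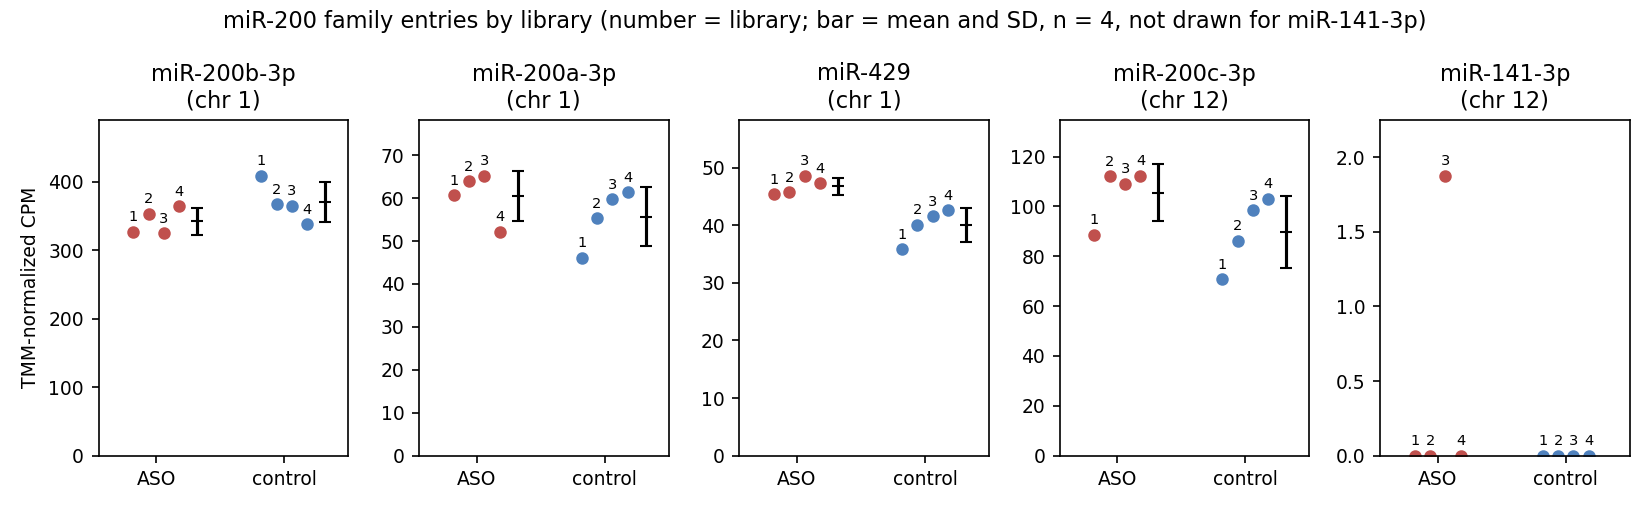
TMM-normalized CPM of the 5 family entries (a panel each, y axes from 0 with separate scales) in 4 ASO and 4 control libraries; numbers are library numbers and bars are mean and SD. miR-429 is the 1 entry whose ASO libraries (45.4 to 48.6 CPM) all lie above the controls (35.9 to 42.6 CPM), and miR-141-3p is above 0 in ASO library 3 alone.

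Of the 4 members tested, 0 passed at an adjusted p of 0.05 in edgeR, where 0.134% of the 745 entries did so (1 entry, miR-503-5p, which fell). At an unadjusted p under 0.05 there was 1 member of 4, miR-429, against 10.5% of all tested entries, and DESeq2 also called 0 of the 4 and 2.82% of all entries. The fold was above 1 in 3 of the 4 members and in 51.7% of tested entries. The members' median log2 fold change was 0.17, beside 0.01 over all tested entries, whose changes had a median size of 0.26. Without control library 1 the log2 fold changes were −0.05 for miR-200b-3p, 0.05 for miR-200a-3p, 0.19 for miR-429 and 0.15 for miR-200c-3p, and 0 of the 4 passed. Without ASO library 1 they were −0.09, 0.12, 0.23 and 0.31 in the same order, and again 0 passed. Nothing in the labels states separate cultures, so the p-values reflect only how these libraries spread, which may be technical. In bulk libraries, fewer cells that hold a microRNA and less of it per cell cannot be told apart.

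**Figure D2:**
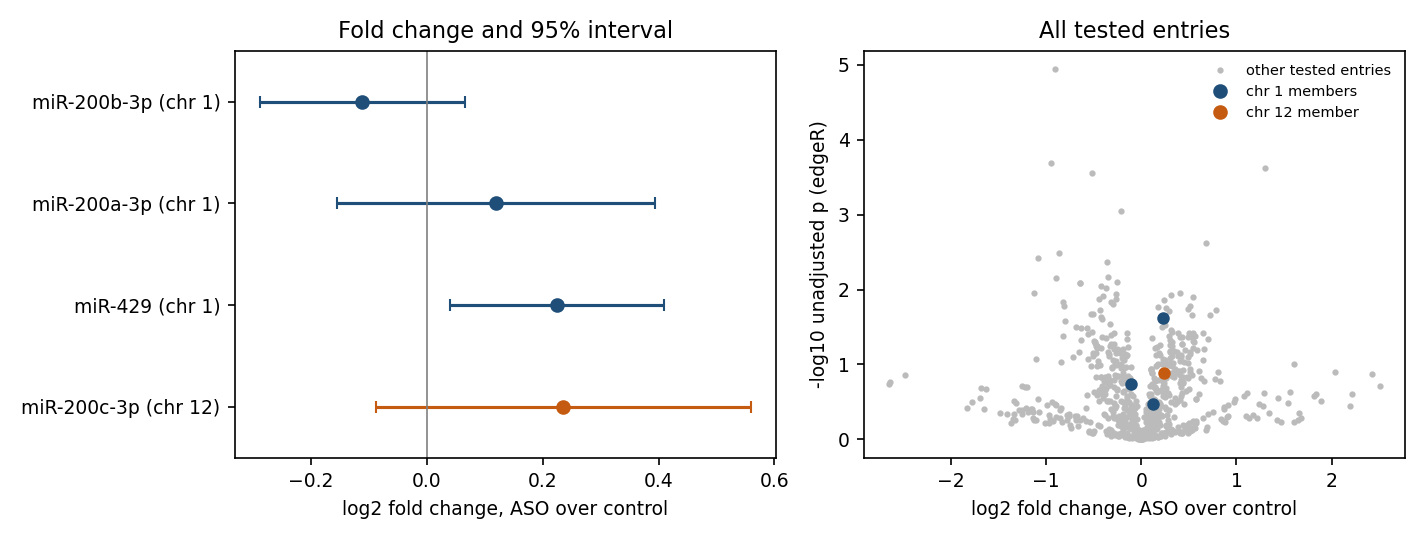
Left, log2 fold change (ASO over control) of the 4 tested members with 95% intervals; right, −log10 unadjusted p against log2 fold change for all 745 tested entries, with chromosome 1 members in blue and the chromosome 12 member in orange. The interval of miR-429 (0.04 to 0.41) lies above 0, the other 3 intervals include 0, and 41 of the 745 entries have a smaller p than miR-429.

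The clusters were compared by the summed level of their entries, as a description without a test. The chromosome 1 cluster summed to 433, 463, 438 and 464 CPM with ASO (libraries 1 to 4), and to 491, 462, 466 and 442 CPM in the controls (libraries 1 to 4). Its mean was 449 ± 16.1 CPM with ASO, against 465 ± 19.9 CPM in the controls, a log2 difference of −0.05 that was smaller than the SD between replicates (0.06). The chromosome 12 cluster, which is nearly all miR-200c-3p, summed to 88.7, 112, 111 and 112 CPM with ASO (libraries 1 to 4), and to 70.7, 86.2, 98.6 and 103 CPM in the controls (libraries 1 to 4). The log2 difference was 0.25, beside an SD between replicates of 0.21. It was 0.14 without control library 1 and 0.33 without ASO library 1.

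The chromosome 1 sum was the larger in all 8 libraries. It adds 3 entries, while the chromosome 12 sum is nearly miR-200c-3p alone. A listed 0 of miR-141-3p need not mean absence, and sequences are taken up unequally, so the size of the ratio is less certain. The ratio of the chromosome 1 sum to the chromosome 12 sum was 4.88, 4.13, 3.95 and 4.13 with ASO (libraries 1 to 4), and 6.94, 5.36, 4.73 and 4.29 in the controls (libraries 1 to 4). Control library 1 stood highest, and ASO library 1 was above control libraries 3 and 4, so the groups overlapped. The mean ratio was 4.27 ± 0.415 with ASO and 5.33 ± 1.16 in controls (SD, n = 4 each). On the log2 scale the ratio was lower with ASO by a difference of −0.30. The difference was −0.17 without control library 1 and −0.37 without ASO library 1.

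**Figure D3:**
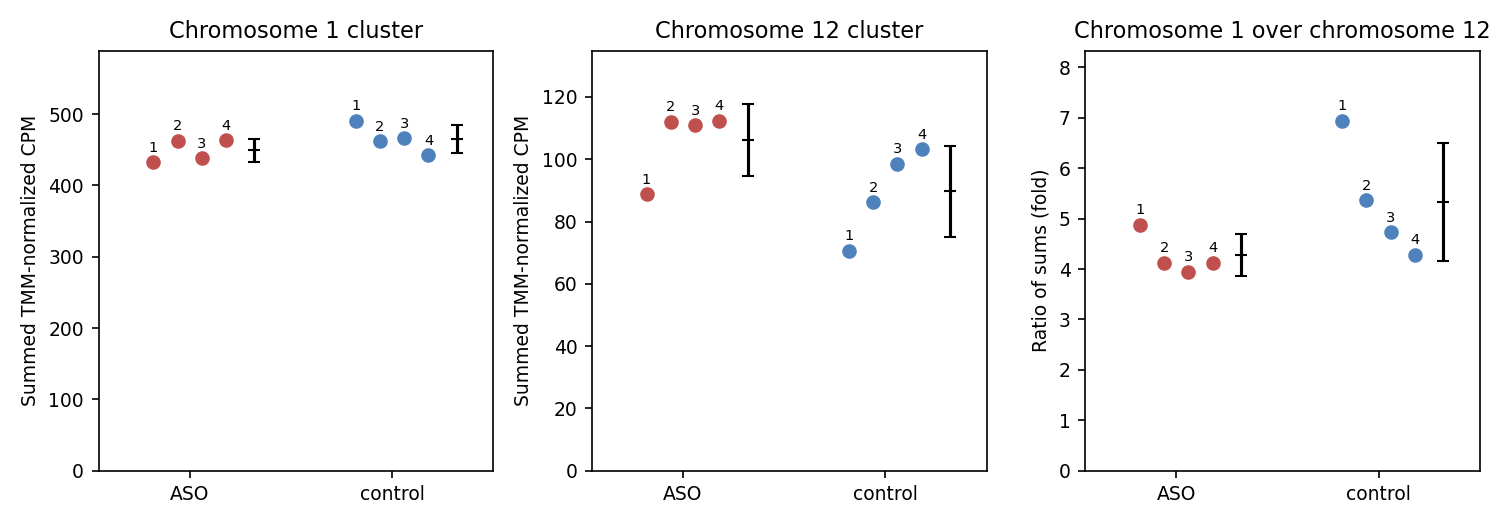
Summed TMM-normalized CPM of the chromosome 1 entries (left) and the chromosome 12 entries (middle), and the ratio of the sums (right), in 4 ASO and 4 control libraries; numbers are library numbers, bars are mean and SD, and y axes start at 0. The ratio lies between 3.95 and 4.88 with ASO and between 4.29 and 6.94 in controls, with control library 1 at the top.

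A single entry per cluster allowed an exact test of the balance. The log2 ratio of miR-200b-3p to miR-200c-3p, with 1 CPM added to each, averaged 1.69 ± 0.13 with ASO and 2.04 ± 0.35 in controls, which is −0.35 apart (two-sided exact permutation p = 0.0571, where the smallest p of 70 arrangements is 0.0286). It therefore missed the threshold. Leaving out control library 4, which had the lowest control ratio, gave −0.46 with p = 0.0286 in the exact permutation test, the smallest that 35 arrangements allow, and leaving out control library 1, which had the highest, gave −0.19 with p = 0.143.

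The balance within the chromosome 1 cluster also differed between libraries. The fold of miR-200b-3p over miR-429 was 7.20, 7.72, 6.67 and 7.70 with ASO (libraries 1 to 4), and 11.4, 9.16, 8.78 and 7.93 in the controls (libraries 1 to 4). All ASO libraries were below all controls, by a narrow gap at control library 4. It was the 1 of 6 ratios between tested members whose groups did not overlap. How often ratios of other tested entries separate the groups was not computed. The level of miR-429 alone already separated the groups, so the ratio is not a separate result. It was also singled out after its values were seen, so it has no test. miR-200a-3p over miR-429, both of the same cluster, was 1.29 ± 0.131 with ASO and 1.39 ± 0.0724 in controls, and miR-200c-3p over miR-429, from different chromosomes, was 2.26 ± 0.218 with ASO and 2.23 ± 0.208 in controls.

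As shares of the family's own counts, miR-200b-3p took 61.6% ± 1.85 with ASO and 66.6% ± 4.60 in controls, and miR-200c-3p took 19.0% ± 1.32 with ASO and 16.2% ± 2.72 in controls. miR-429 took 8.43% ± 0.417 with ASO and 7.22% ± 0.596 in controls. In control library 1 miR-200b-3p alone made up 72.8% of the family and miR-200c-3p 12.6%. By seed, the AACACUG members held 9.05% to 12.2% of the family's counts with ASO and 8.22% to 11.3% in controls, and the AAUACUG members held the rest. The listed counts were thus carried mainly by the seed of miR-200b-3p, miR-200c-3p and miR-429. The AACACUG share is nearly all miR-200a-3p, because miR-141-3p is mostly listed at 0, which need not mean absence. Sequences are also taken up unequally, so the balance of the seeds in the cells is less certain.

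**Figure D4:**
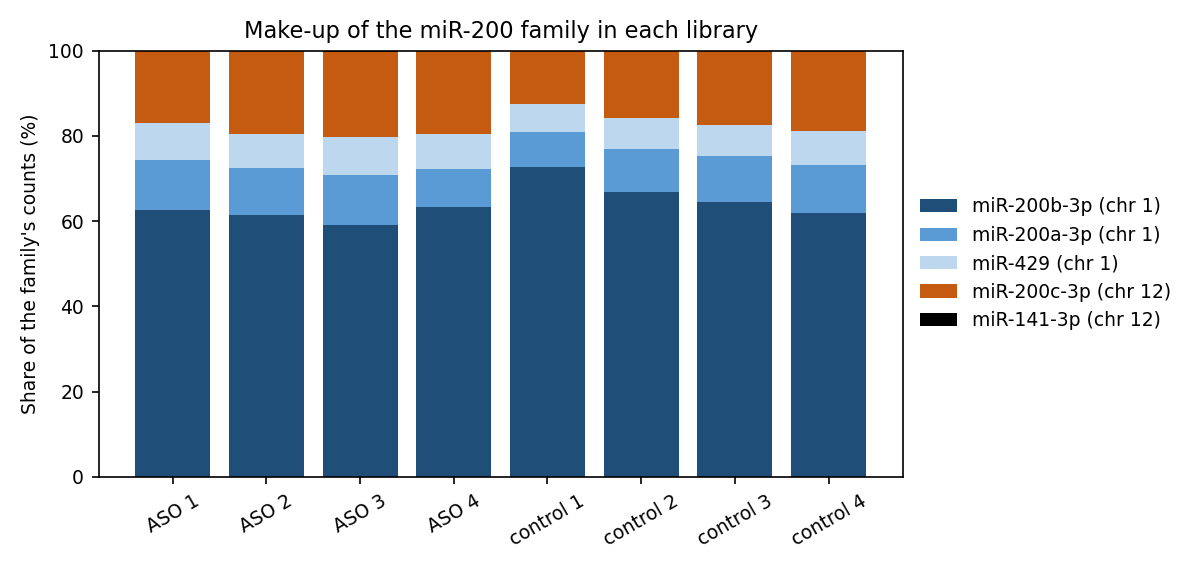
Share of the family's counts (percent, y axis from 0) taken by each entry in each of the 4 ASO and 4 control libraries; blue shades are chromosome 1 entries and orange is miR-200c-3p. miR-200b-3p takes 59.0% to 63.2% with ASO and 62.0% to 72.8% in controls, and miR-141-3p is too small to see.

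The profiles of the members across libraries were compared within and between chromosomes. Likeness was measured as the root mean square difference in log2(CPM + 1) over the 8 libraries, after each entry was centred on its own mean, so a smaller value means a more similar profile. It was 0.11 between miR-200a-3p and miR-429, 0.12 between miR-200c-3p and miR-429 and 0.16 between miR-200c-3p and miR-200a-3p. miR-200b-3p was farther from each of them, at 0.22 from miR-429, 0.25 from miR-200a-3p and 0.29 from miR-200c-3p. That separation rested on control library 1: without it, an alternative chosen after seeing the data, the distances of miR-200b-3p were 0.14, 0.16 and 0.16, and miR-200c-3p and miR-200a-3p were also 0.16 apart. The distance without that library was 0.11 between miR-200c-3p and miR-429, of different chromosomes, and 0.12 between miR-200a-3p and miR-429, of the same one. Control library 1 had the lowest level of miR-200a-3p, miR-429 and miR-200c-3p and the highest of miR-200b-3p. These distances describe 8 libraries of both groups, and all entries share each library's total.

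**Figure D5:**
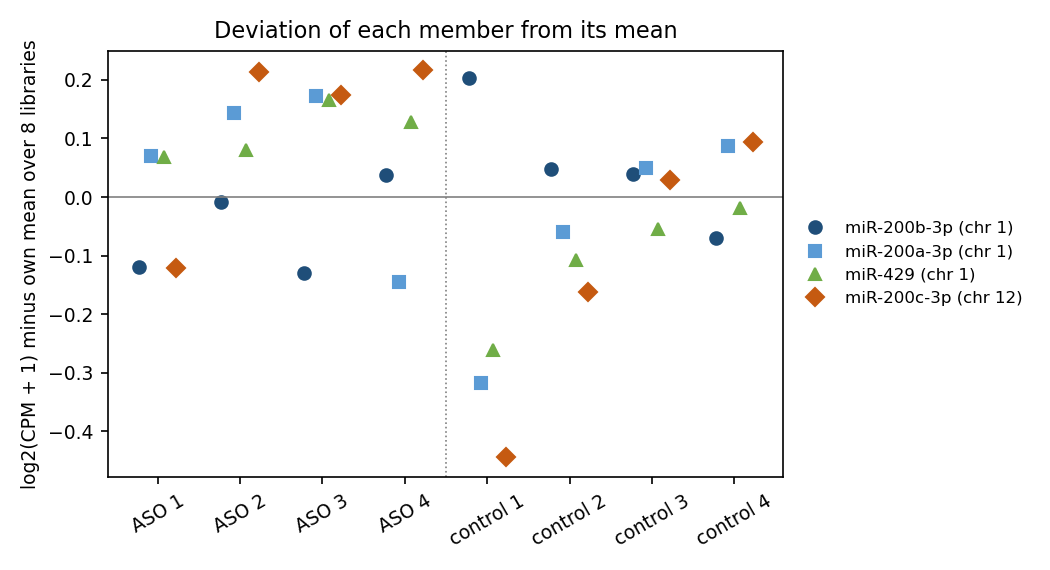
Deviation of each tested member's log2(CPM + 1) from its own mean over the 8 libraries (y axis), by library (x axis, ASO left of the dotted line, controls right). In control library 1 miR-200b-3p is at 0.20, while miR-429 (−0.26), miR-200a-3p (−0.32) and miR-200c-3p (−0.44) are below 0.

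Outside the family, the known tested entries with the profile most like that of miR-200b-3p were miR-106b-3p (0.06), miR-215-5p (0.06) and miR-363-3p (0.07), where the median over 535 entries was 0.26. Those most like miR-200c-3p were miR-664a-3p (0.06), let-7d-5p (0.09) and miR-23b-3p (0.09), with a median of 0.30. These are the smallest of 535 distances for each member, over all 8 libraries. An entry that did not vary would lie 0.10 from miR-200b-3p and 0.22 from miR-200c-3p, also below those medians. Part of the closeness, above all to miR-200b-3p, can therefore be a flat profile.

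Other microRNAs of epithelial cells were set beside the family. Of 7 listed entries of miR-203a, miR-203b, miR-205, miR-375 and the cluster of miR-183-5p, miR-96-5p and miR-182-5p, 5 were tested and 0 passed in edgeR in either direction (0 at an unadjusted p under 0.05 and 0 in DESeq2), with a median log2 fold change of 0.08. For miR-182-5p, the most abundant of them, the mean was 8407 CPM with ASO against 8136 CPM in controls (log2 fold change 0.05, SE 0.05, edgeR adjusted p = 0.760). The fold was above 1 in 4 of the 5 tested. miR-183-5p was lower with ASO (6854 CPM against 7432 CPM in controls, log2 fold change −0.12, edgeR adjusted p = 0.515). The skin-associated miR-203a-3p was at 42.7 ± 4.44 CPM with ASO, against 38.2 ± 4.75 CPM in the controls, close to the level of miR-429, while miR-205-5p, a marker of stratified epithelium, did not exceed 0.612 CPM. Of the 4 entries of miR-192, miR-194, miR-215 and miR-204, which kidney epithelium holds, 0 of 4 tested passed in edgeR (also 0 unadjusted and 0 in DESeq2, median −0.01). The most abundant, miR-192-5p, averaged 1163 ± 105 CPM with ASO, against 1399 ± 258 CPM in the controls (log2 fold change −0.27, edgeR adjusted p = 0.464). The list had no shared direction, with a fold above 1 in 2 of the 4. miR-194-5p averaged 161 ± 25.5 CPM with ASO, against 123 ± 35.3 CPM in the controls (log2 fold change 0.38, edgeR adjusted p = 0.505).

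Mesenchymal microRNAs stood below miR-200b-3p in level. Of the 6 listed entries of miR-143, miR-145, miR-199a, miR-199b and miR-214, 5 were tested and 0 passed in edgeR in either direction (0 unadjusted and 0 in DESeq2, median log2 fold change 0.44). miR-143-3p, the most abundant, averaged 93.5 ± 6.40 CPM with ASO, against 99.6 ± 12.7 CPM in the controls (log2 fold change −0.09, edgeR adjusted p = 0.768), near the level of miR-200c-3p. The arms miR-199a-3p and miR-199a-5p averaged 27.2 and 27.1 CPM with ASO and both 18.2 CPM in controls, so these 2 entries may not be counted separately. miR-199b-3p had the same ASO mean as miR-199a-5p but a different lowest control level (11.4 CPM, where both miR-199a arms had 4.34 CPM), and the list's median is its value. The messenger RNAs of ZEB1, ZEB2 and CDH1 were not measured in these small RNA libraries.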

How the data were processed

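Small RNA libraries (4 ASO, 4 control, assigned by title) were made from total RNA with Qiagen miRNeasy and NEB small RNA kits, per the labels' protocols. bcl2fastq 2.20, Trimmomatic 0.30, GRCh38 and edgeR 3.4.6 are named in the submitters' processing notes, while the sources used here do not give the aligner, the counter or the annotation of microRNAs. The authors deposited whole-number counts per entry, not normalized, which were tested here. Their columns headed TPM are CPM in fact: each deposited CPM value equals count over library total to within 0.223 CPM. The deposited length in bases was used to describe entries.

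The test took the 745 entries (539 known) that were above 0 in 4 or more libraries and averaged 10 counts or more. edgeR 4.0.16 (R 4.3.3) was run with TMM scaling and the quasi-likelihood test, two-sided, with Benjamini-Hochberg adjustment over all tested entries at 0.05. Standard errors are the log2 fold change divided by the square root of F. 1 count is 0.0856 to 0.122 CPM. The fit was tested on simulated counts, where it missed most changes of 2-fold or less and many larger ones. Those changes were set in entries drawn from all 745, many of lower count, so the rate is not that of the family members. For the 4 tested members the 95% intervals of the fold lay between 0.819 (miR-200b-3p) and 1.47 (miR-200c-3p). A missed threshold does not show that a member did not change. No 2 replicates agreed within sampling noise (chi-square over its degrees of freedom, 135 to 801). The labels give no batch and do not say that library numbers pair libraries. The members and lists were chosen with earlier results of these data known. Named entries are all family entries, the 3 nearest profiles of each cluster's leading member, and each context list's most abundant and passing entries. miR-203a-3p, miR-205-5p, miR-142-3p, miR-183-5p, miR-194-5p and the miR-199 entries were described after their values were seen. Alternatives were DESeq2 1.42.0, other scalings (median ratio, library totals, and quantile with limma 3.58.1), other filters, known microRNAs alone, a replicate block and leaving out each library.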

Additional observations from a re-analysis of the deposited data

Results flagged for a closer look

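Of 14 sets of 4 libraries examined for a library far from the others, miR-141-3p aside, 2 held one, and chance gives about 1 in 20. miR-200c-3p was at 88.7 CPM in ASO library 1, against 109 to 112 CPM in the other 3 ASO libraries. The chromosome 12 sum, which is nearly the same measurement, was at 88.7 CPM there, against 111 to 112 CPM. miR-141-3p was at 1.88 CPM in ASO library 3 and at 0 in the other 3 ASO libraries, a pattern that any single value above 0 gives.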

How the results depend on the processing

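All 16 alternatives left 0 family members past the threshold, and the 4 tested members kept their direction in each. The log2 fold change ran from −0.25 (quantile normalization, chosen after seeing the data) to −0.05 (without control library 1) for miR-200b-3p, from 0.15 to 0.31 for miR-200c-3p, from 0.05 to 0.18 for miR-200a-3p and from 0.15 to 0.25 for miR-429, whose adjusted p ran from 0.0687 (DESeq2) to 0.686. Calls over all entries moved: 21 with DESeq2, 0 without a filter, 4 with a mean count of at least 100, 4 among known microRNAs alone, 3 with quantile normalization and 0 with the replicate block; leaving out 1 library gave 0 (without control library 2) to 5 (without control library 4). The cause was not tested. Under the 10 alternatives that could move them, the log2 difference ran from −0.07 to −0.02 for the chromosome 1 sum. For the chromosome 12 sum it ran from 0.14 to 0.33. The difference in their log2 ratio ran from −0.40 (without control library 4) to −0.17 (without control library 1), beside −0.30 with all libraries. Summing the 3p arms alone gives the same sums, and scaling by library totals cannot move the ratio. Leaving out 1 of 4 libraries cannot shift a group mean by the SD between replicates, so that SD gives no measure of stability here. On leaving out 1 library, the difference in the log2 ratio of miR-200b-3p to miR-200c-3p ran from −0.46 (without control library 4) to −0.19 (without control library 1). The exact permutation p was 0.0286 without control library 4, where the groups no longer overlap, and 0.0571 to 0.171 without any other library. With the replicate block the difference was −0.35 (exact sign-flip p = 0.125, the smallest that 4 pairs allow). Whether library numbers pair the libraries is not settled by these values. Deviations of same-numbered libraries correlated at 0.01, 0.03, 0.30 and −0.04, and those of differently numbered libraries from −0.26 to 0.18. The 21 counts of miR-141-3p in ASO library 3 exceed the counting error of a 0, but a listed 0 need not mean absence. Profile distances of miR-200b-3p were over 1.5 times smaller without control library 1, as given with them.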
